A study of Gossypium hirsutum with 9 samples.

Results

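DRP5A, NACK1 and NACK2 are names of plant genes for the last step of cell division, and their cotton copies were examined in developing fibres, which elongate without dividing. All genes of the deposited table with 1 of these 3 symbols were taken, 34 of 70478 genes, of which 11 were DRP5A, 18 were NACK1 and 5 were NACK2. The names had been chosen because 3 of their genes, Gh_A01G0459, Gh_A12G0139 and Gh_D06G2309, stood higher in the RNAi libraries. The differences between RNAi and WT among the 34 genes are therefore a description and carry no test. Symbols are names of similar genes in other plants, so a symbol does not show that a cotton gene has the same role.

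Plant cells divide by building a cell plate, a disc of fused vesicles that grows outwards inside a microtubule array, the phragmoplast. In tobacco, NACK1 and NACK2 are kinesin-like proteins that bind and activate the kinase NPK1, which starts a MAP kinase cascade at the phragmoplast. The cascade phosphorylates MAP65 microtubule bundlers and lets the plate expand. NACK2, called TETRASPORE in Arabidopsis, is known for the division of the male meiotic cell, while NACK1, called HINKEL there, acts in somatic cells. DRP5A is an Arabidopsis dynamin-related protein, from a family of GTPases that pinch or shape membranes, and has been placed at the cell plate. A cotton fibre is 1 epidermal cell of the seed coat that has left the cell cycle and lengthens for weeks.

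The RNAi fibres came from upland cotton (Gossypium hirsutum) with an RNA interference construct against GhWRKY16, a WRKY transcription factor gene, and the WT fibres from wild-type cotton. Plants of both groups were field-grown, and fibres were taken at 9 days post anthesis. The labels list 6 RNAi and 3 WT samples. The 5 RNAi libraries numbered 2 to 6 and the 3 WT libraries were used, and RNAi replicate 1 was not analysed here. The labels name no promoter for the construct and do not say how many transgenic lines or separate plants the replicates stand for, so the spread may be partly technical. The level of GhWRKY16 itself was not analysed here.

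Levels are given as FPKM, fragments scaled to transcript length and library size, so that genes of different length can be compared. The depth relative to WT replicate 1, derived from low values, was 0.366 to 2.19 in the RNAi libraries and up to 1.76 in WT. RNAi replicate 4 was the shallowest of the 8. Fibre markers were abundant in every library, with 216 genes summing to 29194 to 35693 FPKM in RNAi fibres and 27885 to 33394 FPKM in WT fibres. Of 108 fibre markers tested with limma as described below, 88 had a positive log2 difference, RNAi minus WT (median 0.25), as had 9 of 10 inner seed coat markers (median 0.30) and 46.4% of all genes tested (median -0.02). Of these markers 0 passed the threshold (limma; 11 fibre and 1 seed coat marker at an unadjusted p under 0.05), and their part in the results was not tested. The wall-loosening expansin EXPA4, summed over its copies, gave 6940 to 7972 FPKM in RNAi fibres and 7630 to 8248 FPKM in WT fibres. The 5 genes with the symbol HOX3 summed to 0 to 0.914 FPKM. Whether they include the cotton regulator of fibre elongation of that name was not examined. GL2, also a fibre marker, summed to 72.1 to 107 FPKM in RNAi fibres and 65.9 to 107 FPKM in WT fibres. HDG11 summed to 43.9 to 62.7 FPKM in RNAi fibres and 42.8 to 53.6 FPKM in WT fibres. Some fibre markers spread far more over the RNAi libraries than over WT. CESA8 summed to 1.08 to 102 FPKM in RNAi fibres and 1.23 to 5.65 FPKM in WT fibres. For CESA7 these ranges were 0.270 to 12.8 FPKM and 0.176 to 0.242 FPKM, and for FLA12 0.0977 to 19.2 FPKM and 0.607 to 0.948 FPKM. The part of this spread in the results was not tested. ACT1, ACT4, CESA9, FLA14 and SUS4 were listed at 0. Among other cell types, 26 markers of the inner seed coat summed to 385 to 855 FPKM in RNAi fibres and 398 to 546 FPKM in WT fibres. The 259 photosynthesis genes summed to 566 to 1366 FPKM in RNAi fibres and 911 to 1094 FPKM in WT fibres. The 17 anther and male meiosis genes summed to 9.06 to 11.4 FPKM in RNAi fibres and 9.90 to 11.4 FPKM in WT fibres, with the tapetum regulator DYT1 at 0. The 20 embryo storage genes reached at most 1.72 FPKM.

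Most of the 34 genes were silent or nearly silent. Of the 29 on chromosomes and 5 on unplaced scaffolds, 10 were listed at 0 in every library, among them all 5 scaffold genes. Another 15 were above 0 somewhere but did not reach 1 FPKM in 3 libraries, the minimum for the fit. The highest value among those 15 was 1.32 FPKM. The 9 genes that reached the minimum were 2 DRP5A, 4 NACK1 and 3 NACK2 genes. The 3 chosen genes had at least 1 FPKM in the 5 RNAi libraries alone, so they entered the fit through the group in which they were high and had to differ.

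Differences were fitted on log2(FPKM + 1) with limma over 34051 genes, as RNAi minus WT, with an adjusted p under 0.05 as the threshold. This scale understates the change of low genes. In all, 27 genes, or 0.0793%, passed as higher in RNAi fibres and 30, or 0.0881%, as lower. Of the 34 genes, 3 passed as higher and 0 as lower, and nothing is read from this count because the names were chosen by it. Leaving out any 1 of the 8 libraries left 1 or 2 of them past the threshold. Gh_A12G0139 passed in each of those 8 fits. The call of Gh_D06G2309 was lost in 6, all but those without WT replicate 1 or RNAi replicate 4, with an adjusted p of up to 0.128 (limma). That of Gh_A01G0459 was lost in 7, all but the fit without RNAi replicate 6, with an adjusted p of up to 0.286 (limma). The other 6 genes in the fit had log2 differences from -0.18 to 0.49, 3 positive and 3 negative. In 5 of the 24 genes above 0 somewhere every RNAi library lay above every WT library, and in 0 of them below, beside 1.61% and 1.97% of the 54557 genes above 0 in the whole table. Of the 9 genes in the fit, 3 lay above and 0 below, beside 1.72% and 2.35% of all genes in the fit, and nothing is read from these counts either. In whole fibre RNA, fewer cells of a kind and less RNA per cell cannot be told apart.

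**Figure D1:**
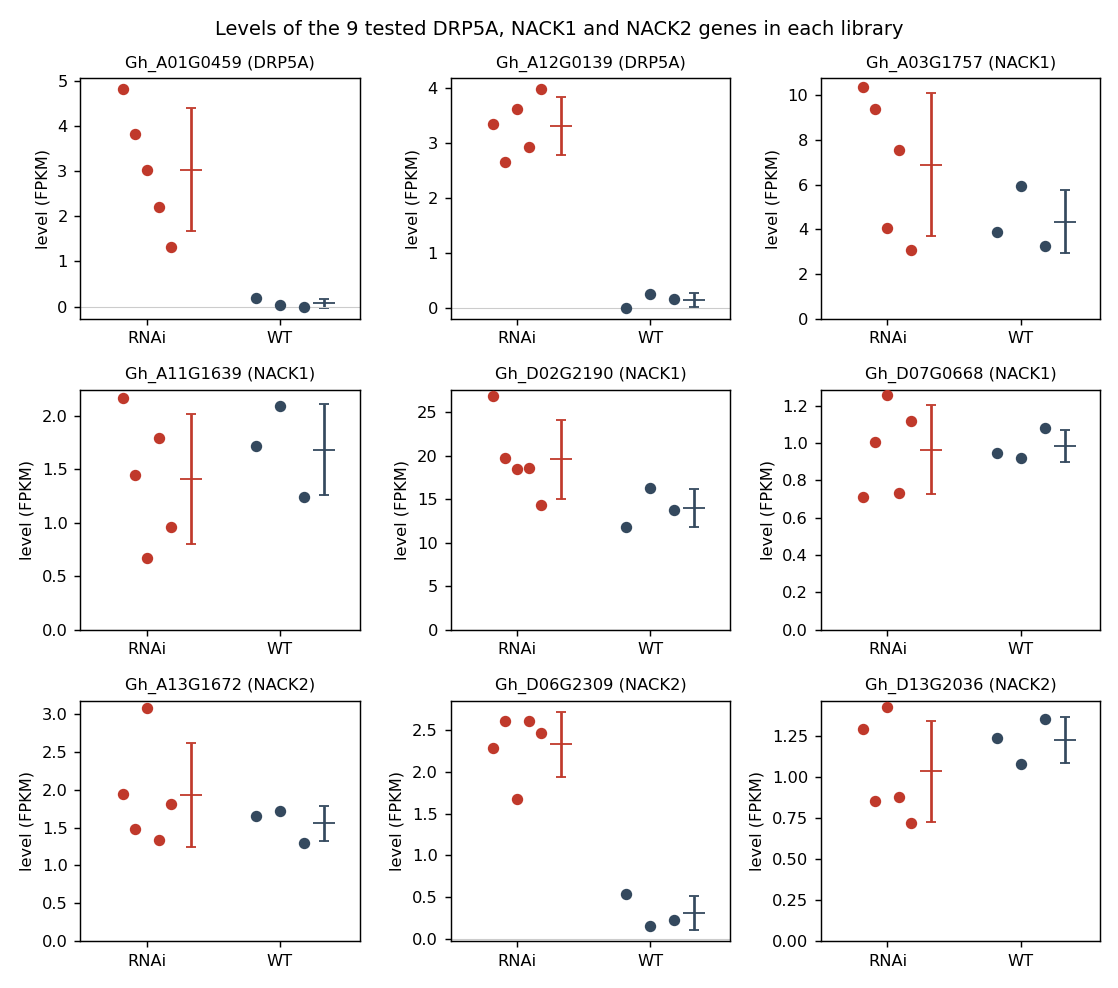
Level in FPKM (vertical axes, each with its own scale) of the 9 DRP5A, NACK1 and NACK2 genes in the fit, in 5 RNAi libraries (red, replicates 2 to 6 from left to right) and 3 WT libraries (blue, replicates 1 to 3). Bars are mean ± SD; the groups are apart in Gh_A01G0459, Gh_A12G0139 and Gh_D06G2309, for which the names were chosen, and overlap in the other 6.

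In order of level, the NACK1 gene Gh_D02G2190 led in both groups, with 19.6 ± 4.56 FPKM in RNAi fibres (SD, n = 5) and 13.95 ± 2.20 FPKM in WT fibres (SD, n = 3). The NACK1 gene Gh_A03G1757 followed, and its libraries lay below all those of Gh_D02G2190 within each group. From there the orders parted. In RNAi fibres Gh_A12G0139, Gh_A01G0459 and Gh_D06G2309 stood in the places 3 to 5, ahead of Gh_A13G1672, Gh_A11G1639, Gh_D13G2036 and Gh_D07G0668. Below Gh_D02G2190, each of these overlapped its neighbour in the order. In WT fibres the same 3 genes held the places 18, 15 and 9 for Gh_A01G0459, Gh_A12G0139 and Gh_D06G2309. There Gh_A11G1639, Gh_A13G1672, Gh_D13G2036 and Gh_D07G0668 came next after Gh_A03G1757, which lay above them in every WT library, and each overlapped the next.

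The DRP5A genes were almost off in WT fibres. Their sum was 6.63 ± 1.28 FPKM in RNAi fibres and 0.461 ± 0.242 FPKM in WT fibres. Gh_A01G0459 and Gh_A12G0139 made up 92.7% to 97.2% of that sum in the RNAi libraries and 26.7% to 69.6% in WT. The RNAi sum is thus the sum of these 2 chosen genes, with little from the other 9.

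Gh_A12G0139 (DRP5A, chromosome A12) had 3.34, 2.65, 3.62, 2.93 and 3.97 FPKM in RNAi replicates 2 to 6, against 0, 0.251 and 0.160 FPKM in WT replicates 1 to 3. The groups lay far apart, and the RNAi libraries were close to each other, with a highest value 1.499 times the lowest. The log2 difference was 1.92 ± 0.16 (SE). FPKM values of a gene in a library are whole multiples of a smallest step, which shows how little lay behind a low value. For Gh_A12G0139 the values came to 96 steps over the RNAi libraries and to 3 steps over WT, so its WT level rests on very few steps. Relative depth summed to 6.76 over the RNAi libraries and to 4.15 over WT. Step totals of the groups, here and below, are therefore not a measure of their difference. How many reads a step stands for is unknown, and no counting interval is given.

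Gh_A01G0459 (DRP5A, chromosome A01) had 4.81, 3.81, 3.03, 2.20 and 1.31 FPKM in RNAi replicates 2 to 6, against 0.190, 0.0359 and 0 FPKM in WT replicates 1 to 3. Here too the groups were apart, but the RNAi libraries differed much more among themselves, the highest being 3.67 times the lowest. Its mean was 3.03 ± 1.36 FPKM in RNAi fibres and 0.0753 ± 0.101 FPKM in WT fibres, and the log2 difference was 1.84 ± 0.28 (SE). RNAi replicate 2 was high and RNAi replicate 6 low for this gene, while Gh_A12G0139 was highest in RNAi replicate 6. The coefficient of variation over the RNAi libraries was 45.0% for Gh_A01G0459 and 16.02% for Gh_A12G0139.

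The other DRP5A genes stayed low in both groups. Gh_D01G0468, the D-subgenome gene on the same chromosome number as Gh_A01G0459, had 0.101, 0.121, 0.173, 0 and 0 FPKM in RNAi replicates 2 to 6, against 0, 0.0180 and 0 FPKM in WT replicates 1 to 3. Its groups overlapped at 0. No gene with the symbol DRP5A was listed on D12, and no D gene was set beside Gh_A12G0139. Gh_D04G0252 had 0 to 0.190 FPKM in RNAi fibres and 0 to 0.522 FPKM in WT fibres. Gh_D05G3394 was at 0.264 FPKM in RNAi replicate 4 and 0.0580 FPKM in RNAi replicate 6 and at 0 in the other 6 libraries. The remaining untested DRP5A gene above 0, Gh_A04G0276, did not exceed 0.0881 FPKM, and 5 DRP5A genes were at 0 throughout.

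NACK2, the male-meiotic kinesin of tobacco, was present through 4 of its 5 genes, which summed to 5.61 ± 0.683 FPKM in RNAi fibres and 3.09 ± 0.297 FPKM in WT fibres. Gh_D06G2309 (chromosome D06) had 2.29, 2.61, 1.67, 2.61 and 2.45 FPKM in RNAi replicates 2 to 6, against 0.539, 0.163 and 0.234 FPKM in WT replicates 1 to 3. The lowest RNAi library was RNAi replicate 4, still above WT replicate 1, the highest WT library. The mean was 2.32 ± 0.390 FPKM in RNAi fibres and 0.312 ± 0.200 FPKM in WT fibres, a ratio of 7.45, and the log2 difference was 1.34 ± 0.17 (SE). In steps it came to 465 over the RNAi libraries and 32 over WT. Steps differ in size between genes, so these numbers are not compared with those of the other chosen genes.

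Gh_D06G0235, the other NACK2 gene on D06, was too low for the fit. It had 0.457, 0.134, 0.448, 0.487 and 0.0737 FPKM in RNAi replicates 2 to 6 and was listed at 0 in all 3 WT libraries. The groups did not overlap, but RNAi replicate 6 was 1 step above 0, and all RNAi libraries together held 26 steps. No fold is given against a group at 0.

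In both NACK2 genes on chromosome 13 the groups overlapped. Gh_D13G2036 had 1.29, 0.856, 1.43, 0.880 and 0.718 FPKM in RNAi replicates 2 to 6, against 1.24, 1.08 and 1.36 FPKM in WT replicates 1 to 3, with a log2 difference of -0.14 ± 0.17 (SE). Gh_A13G1672 had 1.95, 1.49, 3.09, 1.33 and 1.81 FPKM in RNAi replicates 2 to 6, against 1.65, 1.72 and 1.30 FPKM in WT replicates 1 to 3. Its log2 difference was 0.17 ± 0.20 (SE). RNAi replicate 4 stood highest for this gene, and the sum of the 26 inner seed coat markers was also highest there, at 855 FPKM, against 385 to 671 FPKM in the other RNAi libraries and 398 to 546 FPKM in WT. Their part in the level of Gh_A13G1672 was not tested.

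NACK1, the somatic kinesin, was the most abundant of the 3 names, with a sum of 31.9 ± 8.29 FPKM in RNAi fibres and 23.5 ± 3.35 FPKM in WT fibres. Gh_D02G2190 and Gh_A03G1757 carried 78.3% to 84.9% of it in RNAi libraries and 74.4% to 81.1% in WT. Gh_D02G2190 had 26.8, 19.8, 18.4, 18.6 and 14.3 FPKM in RNAi replicates 2 to 6, against 11.8, 16.2 and 13.8 FPKM in WT replicates 1 to 3. RNAi replicate 6 lay below WT replicate 2, so the groups overlapped, and the log2 difference was 0.44 ± 0.19 (SE). Gh_A03G1757 had 10.4, 9.36, 4.07, 7.56 and 3.09 FPKM in RNAi replicates 2 to 6, against 3.87, 5.92 and 3.24 FPKM in WT replicates 1 to 3. Its RNAi libraries spread on both sides of WT, with a log2 difference of 0.49 ± 0.35 (SE).

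The other NACK1 genes were lower. Gh_A11G1639 had 2.17, 1.44, 0.670, 1.79 and 0.956 FPKM in RNAi replicates 2 to 6, against 1.72, 2.09 and 1.24 FPKM in WT replicates 1 to 3, and its groups overlapped. Gh_D07G0668 averaged 0.965 ± 0.241 FPKM in RNAi fibres and 0.983 ± 0.0838 FPKM in WT fibres. Their log2 differences were -0.18 ± 0.23 and -0.02 ± 0.16 (SE). Of the 10 untested NACK1 genes above 0, Gh_A12G0559 reached the highest value, with 0.292 to 1.32 FPKM in RNAi fibres and 0.154 to 0.400 FPKM in WT fibres. Gh_D13G2516 was the only NACK1 gene whose groups did not overlap, at 0.0805 to 0.176 FPKM in RNAi fibres and 0.05 to 0.0638 FPKM in WT fibres. These values came to 27 steps over the RNAi libraries and 8 over WT.

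Which subgenome copy was used does not depend on the contrast between the groups and could be tested. Upland cotton carries an A and a D subgenome, and 10 pairs shared a symbol and a chromosome number, taken in identifier order where a chromosome held several. The pair of Gh_A01G0459 was left out because that gene was chosen by its difference, and Gh_A06G1832 and Gh_D06G0020 were at 0 throughout. For the other 8 pairs the log2 ratio of (A + 1) to (D + 1) was set against 0 over the 8 libraries with an exact two-sided sign-flip permutation test. Its smallest possible p is 0.00781, and p-values were adjusted over the 8 pairs.

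In 5 of the 8 pairs the A and D genes differed in level. The D copy prevailed on chromosome 7, where Gh_D07G0668 (NACK1) had 0.971 ± 0.188 FPKM and Gh_A07G0601 had 0.0242 ± 0.0244 FPKM (SD, n = 8), and it was higher in 8 of 8 libraries (log2 ratio -0.94 ± 0.15 SD, exact adjusted p = 0.0208). The A copy prevailed on chromosome 11, with 1.51 ± 0.531 FPKM for Gh_A11G1639 (NACK1) and 0.362 ± 0.170 FPKM for Gh_D11G1797, again in 8 of 8 libraries (0.86 ± 0.30 SD, exact adjusted p = 0.0208). On chromosome 5 it was Gh_A05G1613 (NACK1), at 0.735 ± 0.202 FPKM, over Gh_D05G1797, at 0.150 ± 0.0966 FPKM (0.59 ± 0.17 SD, 8 of 8 libraries, exact adjusted p = 0.0208).

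Both pairs on chromosome 13 leaned to the A copy in 7 of 8 libraries. For NACK2 the log2 ratio of Gh_A13G1672 to Gh_D13G2036 was 0.39 ± 0.25 SD (exact adjusted p = 0.025), and the exception was WT replicate 3. For NACK1 that of Gh_A13G2211 to Gh_D13G2516 was 0.17 ± 0.13 SD (exact adjusted p = 0.025), and both copies were under 0.44 FPKM. Leaving out 1 library brought the exact adjusted p to 0.05, not under the threshold, in 6 of 8 cases for each pair. The exceptions were RNAi replicates 2 and 4 for the NACK1 pair and WT replicate 3 and RNAi replicate 2 for the NACK2 pair. The size of these ratios depends on the pseudocount, and with 0.01 in place of 1 it was 0.68 for the NACK2 pair and 1.17 for the NACK1 pair. The DRP5A pair Gh_A04G0276 and Gh_D04G0252 and the NACK1 pairs on chromosome 12 did not pass, with log2 ratios of -0.17, 0.11 and -0.09. Reads that fit both copies, whose counting no source used here describes, limit every ratio between copies.

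A shared chromosome number does not make 2 genes corresponding copies, so the symbols of the 5 genes numbered on each side were compared, a check added after seeing the data. Gh_A04G0276 and Gh_D04G0252 shared 0 neighbour symbols and Gh_A12G2426 and Gh_D12G2534 shared 2, while the other 6 pairs shared 5 to 8. Pairs were then formed anew from A and D genes of 1 symbol that shared the most neighbour symbols, at least 3. This kept those 6 pairs, set Gh_A04G0276 beside Gh_D05G3394 (DRP5A, 4 shared) and joined the most abundant NACK1 genes, Gh_A03G1757 and Gh_D02G2190 (9 shared). Of these 8 pairs 6 passed, the 5 above among them. Gh_D02G2190 was higher than Gh_A03G1757 in 8 of 8 libraries, with 17.5 ± 4.66 FPKM for the D copy and 5.94 ± 2.86 FPKM for the A copy (SD, n = 8; log2 ratio of A to D -1.48 ± 0.35 SD, exact adjusted p = 0.0156). With these pairs, both chromosome 13 pairs passed (exact adjusted p = 0.0208) and stayed past the threshold with any 1 library left out (up to 0.0417). Their ratios and unadjusted p were the same as before. The adjusted p fell because another passing pair joined the set adjusted over, so nothing more is read about the chromosome 13 pairs. The DRP5A pair did not pass (exact adjusted p = 0.75).

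**Figure D2:**
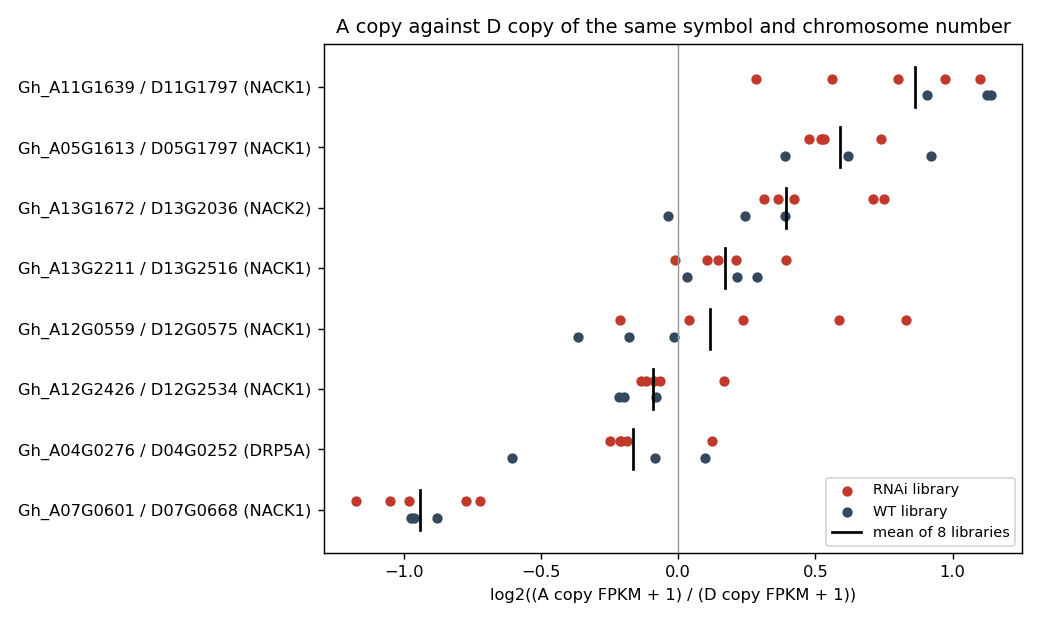
Log2 ratio of the A copy to the D copy, each as FPKM + 1 (horizontal axis), for 8 pairs of DRP5A, NACK1 and NACK2 genes (rows), with 1 point per library, RNAi in red above WT in blue, and a black line at the mean of 8 libraries. Pairs are by chromosome number, and those on chromosome 4 and of Gh_A12G2426 shared few neighbours; points right of 0 mean more of the A copy, and the pairs on chromosomes 11, 5 and 7 lie on 1 side of 0 in all 8 libraries.

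Genes numbered next to the 29 members on chromosomes were examined over 5 identifiers on each side, a window chosen after values were seen. Of the 290 neighbours, 138 could be tested and 4 passed the threshold, all as higher in RNAi fibres. That is 2.90% of the neighbours tested, beside 0.167% of all genes tested. The neighbours entered the fit by the same minimum, and those that reach it in the group where they are high have to differ, so nothing is read from these percentages and the values below are a description. The 4 lay beside both NACK2 genes on D06, 3 next to Gh_D06G0235 and 1 next to Gh_D06G2309. None of the 5 tested neighbours of Gh_A01G0459 or of the 5 of Gh_A12G0139 passed (limma), and in none of them were the groups apart.

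Around Gh_D06G0235, 3 genes stood higher in every RNAi library than in any WT library. Gh_D06G0237, with the symbol KLHL30, a kelch-like protein of vertebrates, had 73.1, 81.6, 80.7, 85.5 and 76.6 FPKM in RNAi replicates 2 to 6, against 9.45, 0 and 0 FPKM in WT replicates 1 to 3 (log2 difference 5.20 ± 0.66 SE, limma adjusted p = 0.0156). Gh_D06G0233, also KLHL30, had 5.35, 5.58, 4.37, 5.08 and 3.96 FPKM in the RNAi libraries, against 1.20, 0 and 0 FPKM in WT (2.17 ± 0.26 SE, limma adjusted p = 0.0118). In both, WT replicate 1 was the only WT library above 0. The unnamed Gh_D06G0234 had 2.81, 2.54, 1.38, 1.84 and 1.70 FPKM in the RNAi libraries, against 0.378, 0 and 0 FPKM in WT (1.43 ± 0.21 SE, limma adjusted p = 0.0328), with the same WT library above 0.

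The genes around and between them did not all do so. Gh_D06G0238 and Gh_D06G0239, too low for the fit, were at 0 in all WT libraries and reached 1.56 and 0.650 FPKM in RNAi fibres, though each was also at 0 in RNAi replicate 4. Gh_D06G0236, numbered between Gh_D06G0235 and Gh_D06G0237, was at 0 in every RNAi library and at 0 to 0.0447 FPKM in WT. Gh_D06G0232 (AAP6), numbered directly before Gh_D06G0233 and too low for the fit, had 0 to 0.434 FPKM in RNAi fibres and 0.108 to 0.149 FPKM in WT fibres. Farther out, the kinase gene CIPK8 (Gh_D06G0240) had 9.62 to 12.3 FPKM in RNAi fibres and 11.6 to 17.9 FPKM in WT fibres, and Gh_D06G0231 had 2.05 to 4.05 FPKM in RNAi fibres and 2.06 to 2.69 FPKM in WT fibres. Neither passed the threshold (limma adjusted p = 0.877 and 0.905).

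Beside Gh_D06G2309 it was 1 gene. The unnamed Gh_D06G2308 had 1.13, 1.34, 1.4997, 2.005 and 2.002 FPKM in RNAi replicates 2 to 6, against 0.291, 0.110 and 0.117 FPKM in WT replicates 1 to 3 (log2 difference 1.14 ± 0.17 SE, limma adjusted p = 0.0464). As with Gh_D06G2309, every RNAi library was above every WT library and WT replicate 1 was the highest of WT. On the other side Gh_D06G2310 had 1.97 to 3.38 FPKM in RNAi fibres and 2.45 to 2.76 FPKM in WT fibres. All 4 neighbours past the threshold reached 1 FPKM in the 5 RNAi libraries and, apart from WT replicate 1 for both KLHL30 genes, in no WT library, so they too entered the fit through the group in which they were high.

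Most of these calls rest on the full set of libraries. With 1 library left out, the call of Gh_D06G0233 was lost without WT replicate 2 or 3 (limma adjusted p up to 0.0842), and that of Gh_D06G0237 also without RNAi replicate 2, 5 or 6 (up to 0.103). The call of Gh_D06G0234 was lost in 7 of 8 fits, all but that without RNAi replicate 4 (up to 0.225), and the call of Gh_D06G2308 in all 8 (up to 0.273).

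**Figure D3:**
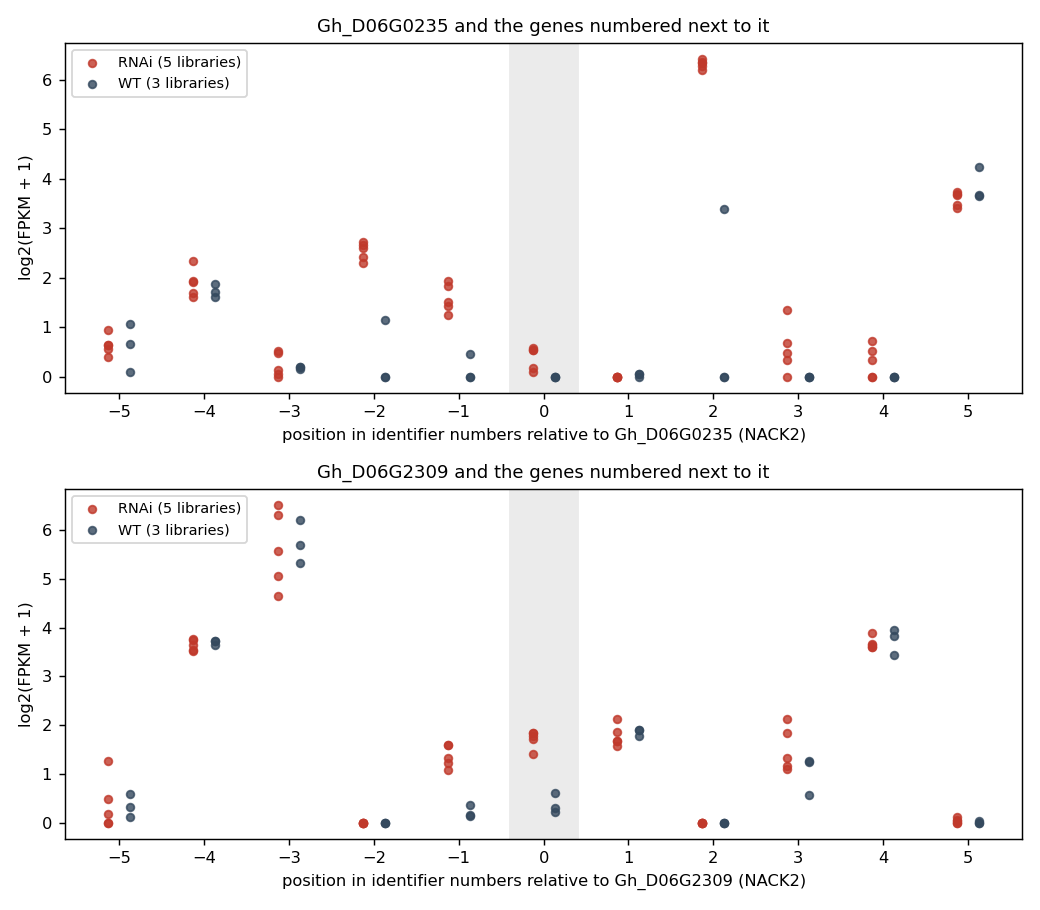
Level as log2(FPKM + 1) (vertical axis) of Gh_D06G0235 (top) and Gh_D06G2309 (bottom), both NACK2 and shaded, and of the genes numbered up to 5 before and after them (horizontal axis, in identifier numbers and not in bases), with 1 point per library for RNAi (red) and WT (blue). At Gh_D06G0235 the positions -2, -1 and 2 are raised in RNAi and WT replicate 1 is the WT point above 0, and at Gh_D06G2309 the position -1 is raised.

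The genes whose levels ran most like each member were found by Pearson's r of log2(FPKM + 1) over the 8 libraries among tested genes with a symbol. The highest r of so large a search over 8 libraries is high even for unrelated genes. Nothing is read from its size, for the chosen genes or the others. For the chosen genes this r holds the difference between the groups, so their nearest genes are mostly others that differ between RNAi and WT. For Gh_A12G0139 they were TOPP4 (Gh_D10G2504, a type-one protein phosphatase, r = 0.987), TFT6 (Gh_A01G0110, a 14-3-3 protein, r = 0.987) and ALS (Gh_D02G0154, r = 0.975). For Gh_D06G2309 they were UBQ11 (Gh_D09G1418, a polyubiquitin, r = 0.991), CPX1 (Gh_A11G1434, r = 0.982) and At1g04970 (Gh_A11G1406, r = 0.981).

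Gh_A01G0459 ran most like ACR6 (Gh_D06G1668, r = 0.988), the expansin EXPA4 (Gh_A05G0808, r = 0.976) and RBCS (Gh_D07G1759, the Rubisco small subunit, r = 0.976). These 3 shared its high value in RNAi replicate 2 and its low value in RNAi replicate 6 or 5. RBCS had 4.42, 3.19, 3.12, 2.41 and 2.31 FPKM in RNAi replicates 2 to 6, against 1.28, 0.647 and 0.619 FPKM in WT replicates 1 to 3. Summed over all its copies, RBCS was at 7.80 to 12.2 FPKM in RNAi fibres and 2.02 to 4.40 FPKM in WT fibres, and among other photosynthesis symbols the sums of CAB21, CAB6A, CAB8, LHCB5, PSAL, PSBO and PSBY were also higher in every RNAi library, and that of PSAN lower. The 259 photosynthesis genes together overlapped between the groups. Of their 71 tested genes 0 passed the threshold (limma; 12 at an unadjusted p under 0.05, beside 5.86% of all genes tested), 24 were positive and 47 negative, and the median log2 difference was -0.13. The part of such tissue in the level of Gh_A01G0459 was not tested.

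For the other members r holds the spread between libraries and any difference between the groups. Gh_A13G1672 (NACK2) ran with genes of flavonoid and tannin synthesis, BAN (anthocyanidin reductase, Gh_D05G1596, r = 0.984), CYP75A3 (flavonoid hydroxylase, Gh_D07G1197, r = 0.980) and CHS1 (chalcone synthase, Gh_D10G1429, r = 0.969), all highest in RNAi replicate 4. BAN is 1 of the inner seed coat markers above. Gh_A03G1757 (NACK1) ran with CSLD3 (Gh_D12G2049, a cellulose-synthase-like protein of tip-growing cells, r = 0.989). Gh_D02G2190 (NACK1) had r = 0.835 with Gh_A03G1757, and its nearest gene was At1g04990 (Gh_A07G1537, r = 0.986). The nearest genes of Gh_A11G1639, Gh_D07G0668 and Gh_D13G2036 were FRS5 (Gh_D07G1984, r = 0.992), HIPP26 (Gh_D12G1507, r = 0.968) and At5g67140 (Gh_D03G0214, r = 0.968).

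None of the tested genes in 4 lists around cytokinesis, microtubules and the cell cycle passed the threshold. The lists were drawn up by symbol, so a listed gene need not work with NACK or DRP5A. They leave out the 34 members and were chosen with results of these data known. Genes below the minimum for the fit could not pass, among them all genes of KN, KIN12A, KIN12B, CDKB1-2 and CYCB2-4 below. Outside the cascade list below, the tested genes were 87 of 136 in the cell-plate list, 127 of 243 in the kinesin list and 147 of 319 in the cell cycle list. Across all 34051 genes 0.167% passed in either direction, 5.86% had an unadjusted p under 0.05, and the median log2 difference was -0.02. At so small a share, lists of these sizes can easily hold no passing gene, so nothing is read from the counts of 0. The cascade list covers the cascade below NACK, from NPK1 and its Arabidopsis counterparts ANP1 to ANP3 to MAP65. MYB3R genes were pooled into it by symbol and are not a step of that cascade. In this list 32 of 73 genes could be tested. Of these 0 passed (limma; 0 at an unadjusted p under 0.05), 18 differences were positive, and the median was 0.03. The kinase NPK1, the partner of NACK, summed to 2.26 ± 0.413 FPKM in RNAi fibres and 1.84 ± 0.484 FPKM in WT fibres. MKK6, the next kinase, summed to 3.99 ± 2.24 FPKM in RNAi fibres and 2.55 ± 0.993 FPKM in WT fibres, and MPK4, the last, to 39.4 ± 3.40 FPKM in RNAi fibres and 39.4 ± 7.31 FPKM in WT fibres. In each the ranges of the groups overlapped.

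The genes of the cascade list with the smallest p were mixed in direction. The bundler gene MAP65-3 (Gh_A09G2377), whose protein holds the phragmoplast midline together in Arabidopsis, averaged 2.27 ± 0.947 FPKM in RNAi fibres and 4.14 ± 2.05 FPKM in WT fibres (limma adjusted p = 0.844). ANP1 (Gh_D11G2718) averaged 2.74 ± 0.278 FPKM in RNAi fibres and 2.17 ± 0.392 FPKM in WT fibres (limma adjusted p = 0.874). MYB3R-1 (Gh_A06G0860), an activator of mitotic genes, averaged 2.50 ± 1.04 FPKM in RNAi fibres and 1.67 ± 0.633 FPKM in WT fibres, and MPK4 (Gh_A07G1297) 6.07 ± 2.45 FPKM in RNAi fibres and 4.46 ± 0.746 FPKM in WT fibres.

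In the list of cell-plate membranes and wall, which holds the vesicle fusion machinery, other dynamins and callose and cellulose enzymes, 0 of 87 tested genes passed (limma; 8 at an unadjusted p under 0.05), with 48 positive differences and a median of 0.02. KNOLLE (KN), the syntaxin of the cell plate, was close to absent, with 0.697 ± 0.651 FPKM over 4 genes in RNAi fibres and 1.01 ± 0.866 FPKM in WT fibres. Its partners KEULE (KEU) and SNAP33, which also serve other membranes, were higher, at 23.2 ± 1.90 and 58.7 ± 3.29 FPKM in RNAi fibres and 24.3 ± 1.95 and 59.1 ± 3.80 FPKM in WT fibres. Among other dynamin genes DRP4C and ARC5 were low, at 1.66 and 4.26 FPKM in RNAi fibres and 1.70 and 5.28 FPKM in WT fibres. Others were far above DRP5A, such as DRP1C with 92.8 ± 2.44 FPKM in RNAi fibres and 88.4 ± 4.57 FPKM in WT fibres, and DRP2B, a clathrin-linked dynamin, with 115 ± 5.53 FPKM in RNAi fibres and 105 ± 14.9 FPKM in WT fibres. CDC48 (Gh_A09G1385), an ATPase that takes part in membrane fusion, averaged 48.4 ± 6.55 FPKM in RNAi fibres and 36.1 ± 7.10 FPKM in WT fibres (limma adjusted p = 0.825). CALS9 (Gh_A08G0111), a callose synthase, averaged 12.2 ± 2.08 FPKM in RNAi fibres and 8.95 ± 1.73 FPKM in WT fibres (limma adjusted p = 0.840). Another CDC48 gene (Gh_D09G1387) averaged 42.5 ± 7.51 FPKM in RNAi fibres and 31.4 ± 5.65 FPKM in WT fibres (limma adjusted p = 0.840). SCD2 (Gh_D01G1294) was lower in RNAi fibres, at 17.2 ± 1.67 FPKM against 21.0 ± 1.65 FPKM in WT fibres (limma adjusted p = 0.840).

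Among phragmoplast and mitotic kinesins and other microtubule proteins, 0 of 127 tested genes passed (limma; 6 at an unadjusted p under 0.05), with 69 positive differences and a median of 0.04. The smallest p belonged to WVD2 (Gh_D11G2568), a microtubule-associated protein of anisotropic growth, at 2.01 ± 0.520 FPKM in RNAi fibres and 4.02 ± 0.820 FPKM in WT fibres (limma adjusted p = 0.382). ATK4 (Gh_A13G0912), a minus-end kinesin, averaged 5.68 ± 1.13 FPKM in RNAi fibres and 8.45 ± 0.708 FPKM in WT fibres (limma adjusted p = 0.659). ATK1 (Gh_A10G0985) averaged 1.51 ± 0.400 FPKM in RNAi fibres and 2.46 ± 0.221 FPKM in WT fibres (limma adjusted p = 0.799). KINESIN-13A (Gh_A10G2259) was higher in RNAi fibres, at 10.5 ± 1.96 FPKM against 7.45 ± 0.543 FPKM in WT fibres (limma adjusted p = 0.807). POK1, a kinesin that marks the division plane, summed to 66.7 to 81.5 FPKM in RNAi fibres and 83.5 to 87.2 FPKM in WT fibres, with 0 of its 4 tested genes past the threshold. The phragmoplast kinesins KIN12A and KIN12B were low, at 1.0004 ± 0.472 and 1.51 ± 0.322 FPKM in RNAi fibres and 0.982 ± 0.232 and 1.49 ± 0.425 FPKM in WT fibres.

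In the cell cycle and S phase list 0 of 147 tested genes passed (limma, with 6 at an unadjusted p under 0.05). There were 74 positive differences, and the median was 0.00. CDKB1-2, a kinase of mitotic cells, summed to 1.19 ± 0.444 FPKM in RNAi fibres and 0.994 ± 0.586 FPKM in WT fibres, and CYCB2-4, a mitotic cyclin, to 1.12 ± 0.257 FPKM in RNAi fibres and 1.63 ± 0.786 FPKM in WT fibres. CYCB1-2, by name a mitotic cyclin as well, was at 292 ± 39.6 FPKM in RNAi fibres and 295 ± 11.7 FPKM in WT fibres. PCNA, the sliding clamp of DNA replication, was at 30.5 ± 7.86 FPKM in RNAi fibres and 26.4 ± 2.21 FPKM in WT fibres. CYCD1-1 (Gh_D05G2016), a G1 cyclin, averaged 1.101 ± 0.393 FPKM in RNAi fibres, against 0, 1.18 and 0.0577 FPKM in WT replicates 1 to 3 (limma adjusted p = 0.840). The 2 named SMR3 genes, inhibitors of cyclin-dependent kinases, averaged 22.2 ± 3.27 and 28.1 ± 4.44 FPKM in RNAi fibres and 28.4 ± 3.37 and 36.7 ± 5.70 FPKM in WT fibres, and neither passed. BUB3.2 (Gh_A13G2113) averaged 5.28 ± 0.646 FPKM in RNAi fibres and 3.78 ± 1.15 FPKM in WT fibres (limma adjusted p = 0.840).

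**Figure D4:**
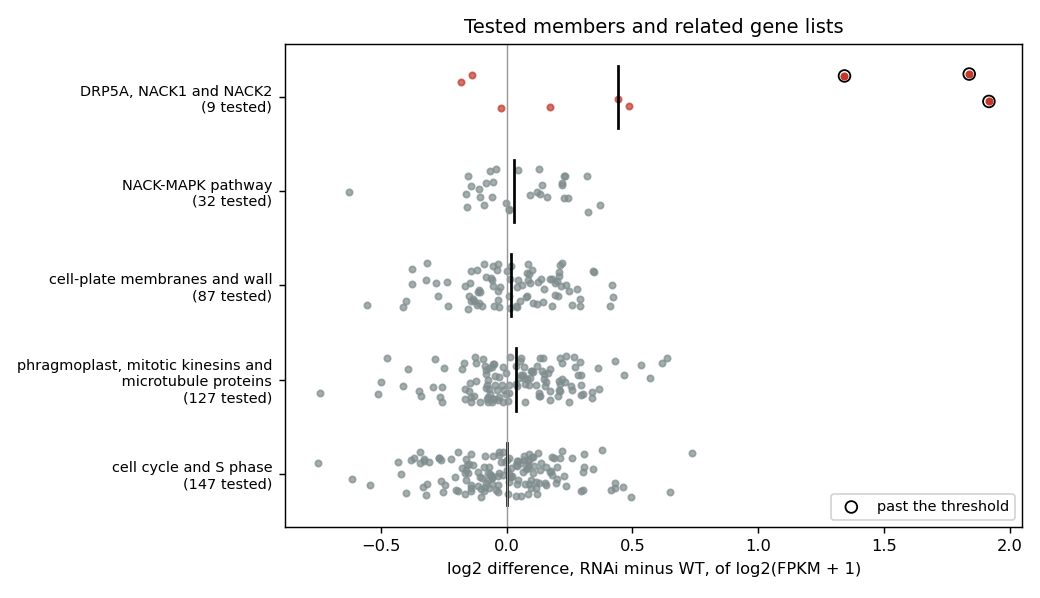
Log2 difference, RNAi minus WT, of log2(FPKM + 1) (horizontal axis) for each tested gene of 5 lists (rows, points spread vertically for sight alone), with a black line at each median and a ring around genes past the threshold. The 3 ringed genes are Gh_A12G0139, Gh_A01G0459 and Gh_D06G2309, for which the first row was chosen, and the medians of the 4 related lists lie between 0.00 and 0.04.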

How the data were processed

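Transcript levels of 9-day fibres were measured by RNA sequencing. The authors deposited 1 FPKM value per gene and library. The submitters' processing notes list HISAT2, FastQC and DESeq 1.10.1 with no role for each. Build, gene models and counter: not given in the sources used here. Reads may be shared between near-identical A and D copies.

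Genes were matched by the symbol paired with each identifier (52552 of 70478 genes had one); 0 members matched the reference table, and no coordinates or sequences are given. The members and lists were chosen with earlier results of these data known. The fit, on log2(FPKM + 1), took genes that reached 1 FPKM in 3 or more libraries and used limma 3.58.1 (R 4.3.3; moderated with a trend, Benjamini-Hochberg adjustment). It was tested on simulated data. Column sums were 1200826 to 1296912 FPKM. The number of reads is unknown, so relative depth came from ratios of values up to 0.6 FPKM, and steps are whole within 0.1 step for values of up to 20 steps; for Gh_A01G0459 that check covered 2 values. Named were the members, the 4 genes of each list with the smallest p and all neighbours past the threshold. Of the 3 genes most like each tested member, all are named for the 3 chosen genes and Gh_A13G1672. For the other tested members the nearest gene alone is named. Summed symbols and other neighbours were chosen after their values were seen.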

Additional observations from a re-analysis of the deposited data

Results flagged for a closer look

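In 44 groups of 5 RNAi libraries, 5 had 1 library far from the other 4 by Dixon's gap criterion. Chance alone meets it in about 1 of 20 groups if values are normally distributed. The DRP5A genes below lie near 0, where 1 step can be enough to meet it, so nothing is read from the number of groups. Gh_A04G0276 (DRP5A) was at 0.0881 FPKM in RNAi replicate 4 and at 0 in the other RNAi libraries. Gh_D04G0252 (DRP5A) was at 0 in RNAi replicate 4 and at 0.138 to 0.190 FPKM in the others. Gh_D05G3394 (DRP5A) was at 0.2643 FPKM in RNAi replicate 4 and at 0 to 0.0580 FPKM in the others. MPK4 (Gh_A07G1297) was at 10.3221 FPKM in RNAi replicate 4 and at 4.47 to 5.95 FPKM in the others. MYB3R-1 (Gh_A06G0860) was at 4.3534 FPKM in RNAi replicate 2 and at 1.95 to 2.09 FPKM in the others. RNAi replicate 4 had the lowest relative depth, 0.366, and the part of depth in these values was not tested.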

How the results depend on the processing

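Among 17 alternatives, the number of all genes past the threshold, 57 (27 higher, 30 lower), became 35 with a pseudocount of 0.01 (17 lower), 36 with a filter at 5 FPKM (16 higher), 88 with array weights (42 higher, 46 lower) and 33 to 58 with 1 library left out (14 to 26 higher, 18 to 32 lower). Of the 3 members past it, 1 was left with a pseudocount of 0.01, Gh_D06G2309. With the filter at 5 FPKM, which no chosen member reached, 0 were left. With no filter 2 were left (Gh_A01G0459 lost its call), and with 1 library left out 1 to 2. Gh_A12G0139 passed in 15 of 16 alternatives (log2 difference 1.72 to 5.43), Gh_D06G2309 in 10 (1.26 to 3.01) and Gh_A01G0459 in 7 (1.69 to 5.94). The upper ends come from the smallest pseudocount, with which Gh_A12G0139 and Gh_A01G0459 did not pass. Other scalings moved the median of all genes to -0.01 and 0.00. The 16 named list genes passed in 0 of 266 alternatives. With a replicate block for the 2 shared numbers, 313 genes passed (193 higher, 120 lower), with 1 in the phragmoplast list and 1 in the cell cycle list. That fit takes the difference from the 2 shared numbers alone and leaves little to estimate the spread, so nothing is read from its counts. Deviations of same-numbered samples had r = 0.35 and -0.09, which does not settle whether the numbers pair the samples.

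Of 86 alternatives for the 8 ratios of A to D copies, 73 stayed on the same side. With 1 library left out, the ratio was 0.14 to 0.20 for Gh_A13G2211 and Gh_D13G2516 and 0.34 to 0.46 for Gh_A13G1672 and Gh_D13G2036, most no longer past the threshold, and -0.13 to -0.0753 for Gh_A12G2426 and Gh_D12G2534, which passed without RNAi replicate 2. Fewer libraries allow fewer sign flips. The WT levels of Gh_A12G0139 and Gh_A01G0459 rest on 3 and 8 steps.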
